A study of Mus musculus with 4 samples.

Results

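The cytosolic ribosomal proteins were taken as the probe sets whose platform-annotation symbol began with Rpl or Rps and a digit, or was Rplp0 to Rplp2 or Rpsa, leaving out the S6 kinase genes. Of 12422 probe sets other than controls, 49 named 1 such gene, for 35 genes in all. A further 39 probe sets named such a gene together with other genes, mostly its pseudogenes, and are given apart. RNA was measured on 4 Affymetrix arrays in CD4+CD8+ double-positive thymocytes, immature T cells of the thymus, bead-sorted from female C3H/HeN mice aged 4 weeks. The cells were cultured for 3 h at 5.0E+06 cells per ml with medium and 0.1% PBS (2 arrays) or with 1e-07 M dexamethasone, a synthetic glucocorticoid (2 arrays). The series design calls the replicates technical extracts, and whether they came from separate wells or mice is not stated, so p-values measure the spread between extracts only. No mutant allele or transgene is named in the labels.

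The cytosolic ribosome has a small subunit, whose proteins carry the prefix Rps, and a large subunit with the prefix Rpl. A stalk of Rplp proteins on the large subunit recruits translation factors. Ribosomal protein mRNAs are abundant in growing cells, start with a run of pyrimidines called the 5′ terminal oligopyrimidine (TOP) element, and are translated under the control of mTORC1. Thymocytes are sensitive to ribosomal protein dose, and loss of Rpl22 is known to block early αβ T cell development.

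Ribosomal protein probe sets were slightly brighter on the dexamethasone arrays at the deposited scaling and dimmer when scaled to the hybridization controls, and other probe sets of like signal moved in the same direction. None of the 31 members with enough signal to test passed the threshold (limma, adjusted p under 0.05, two-sided), against 3.15% of all 7453 probe sets tested (1.64% higher and 1.52% lower). At an unadjusted limma p under 0.05 there were 18 of the 31 at the deposited scaling, against 19.0% of all probe sets tested. The 18 held Rps13 and an Rpl22 probe set, which were lower. This count moved with the setting. It was 4 under quantile normalization (against 1375 of all 7453), 6 without the variance trend (against 1218) and 22 with a replicate block (against 1538). The 31 members had a median log2 difference, dexamethasone minus medium, of 0.20, and 26 of them were higher, at the scaling of the deposited values, but quantile normalization gave 0.038. Scaling to the hybridization controls gave -0.23, and 25 of the 26 were then lower, 9 of them passing. That scaling moved the median of all probe sets tested from 0.00 to -0.43. Under it 13 members fell and 0 rose, against 53.5% and 1.05% of all probe sets. In a fit with the replicate number as a block, 6 members rose and 1 fell, against 2.31% and 2.33% of all probe sets.

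**Figure D1:**
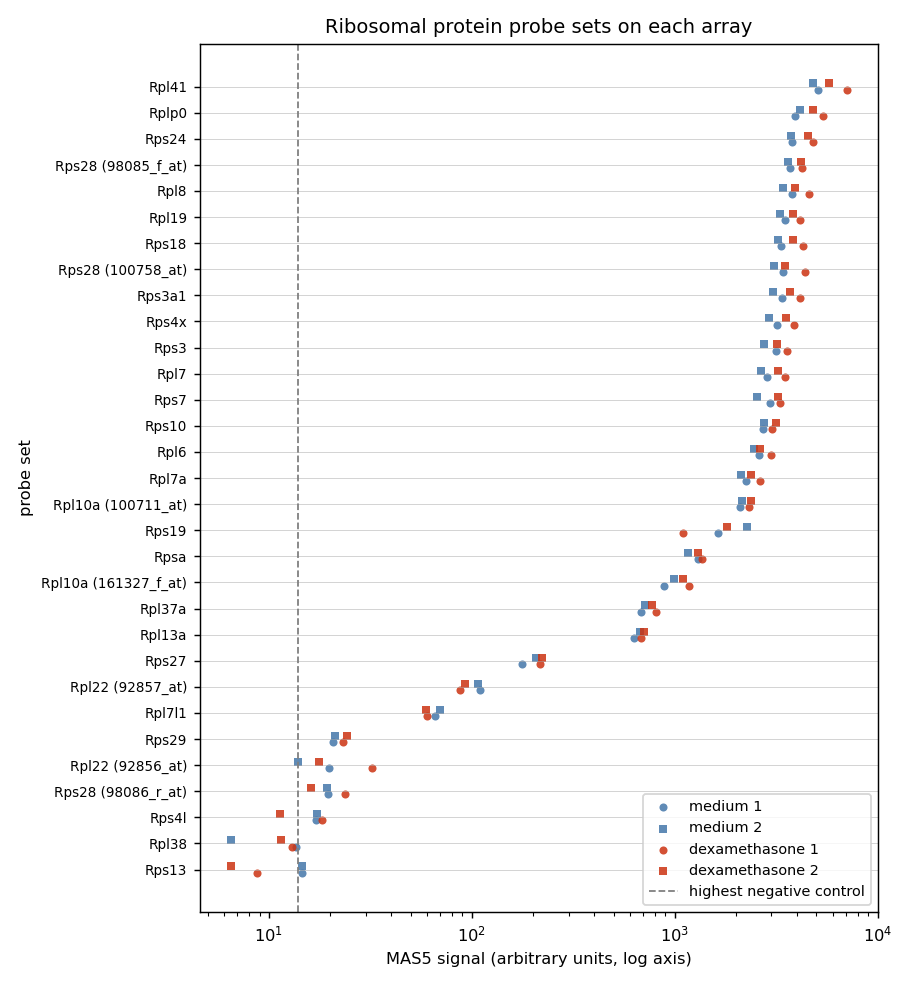
MAS5 signal (log axis) of the 31 tested ribosomal protein probe sets on each of the 4 arrays, ordered by mean signal. Blue is medium, red is dexamethasone, circles are replicate 1 and squares replicate 2, and the dashed line is the highest negative control, at 14. At the deposited scaling 22 probe sets have both red points to the right of both blue points (control scaling leaves 1 of 31 higher), and Rps19 has overlapping groups.

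The deposited scaling gives every array the same trimmed mean, and with it median signals of 21.1 to 22.8 and shares of 55.6% to 57.2% of probe sets above 14, the highest value of 19 bacterial and yeast control probe sets, so these values do not measure how much RNA each array received. The cells carried the markers of their label, with signals of 423 to 508 for Cd4 and 2345 to 2585 for Cd8a, and none of 10 such markers lay in the background, though Ptcra fell. All 6 thymic epithelial markers on the array lay at or below 14. Of 9 macrophage and dendritic markers 4 did so, of 5 erythroid markers 3, and of 5 mature T cell markers 2, as did Cd22 among 6 B cell markers. The brightest probe sets of the B cell markers summed to 1394 and 1416 in medium and to 1888 and 1914 with dexamethasone. Most of this sum was 1 Ighm probe set, and 2 bright Ighm probe sets rose. The other 2 tested Ighm probe sets, both dim, were lower without passing (-0.41 ± 0.20 and -0.37 ± 0.19), with separated groups. Of the 8 tested probe sets of the B cell list, 5 were higher on average. In the mature T cell list Il7r rose, from 49.4 and 58.0 to 147 and 139, and with it that sum moved from 156 and 196 to 259 and 243. The other tested markers of that list, Ccr7 and Klf2, were lower on average with dexamethasone, with overlapping groups. The macrophage and dendritic sum moved from 482 and 519 to 435 and 409, and the erythroid sum from 120 and 123 to 151 and 128. Most of the first sum was Cd74, at 379 and 398 in medium and 330 and 322 with dexamethasone. Most of the second was Hba-a1, at 94.3 and 99.9 in medium and 112 and 104 with dexamethasone. RNA integrity was read from the 3′ to 5′ ratio of actin, which was 1.15 and 1.06 on the medium arrays against 1.40 and 1.24 on the dexamethasone arrays. The same ratio of Gapdh overlapped between groups, at 0.838 and 0.845 against 0.904 and 0.823. Spiked-in hybridization controls (9 probe sets) had signals 1.37-fold higher on the dexamethasone arrays, a log2 difference of 0.45. Control scaling took every probe set named for these control genes, a wider set than the 9, and so shifted the arrays by a slightly different amount. The actin ratio, the spiked-in controls and these marker sums moved with the groups, and their part in the ribosomal protein differences was not tested. In sorted bulk cells, fewer cells of a type and less RNA per cell cannot be told apart.

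Most members had either strong signal or none above background, and the other 11 lay in between. A mean signal over 1000 was found for 20 members and for 23 probe sets that named several genes, beside 288 other probe sets of the array. The 200 brightest probe sets held 18 members and 22 probe sets naming a ribosomal protein with other genes. At the other end, 18 members were at or below the background of 14 on all 4 arrays. Signal depends on the affinity of the probes, so levels of different probe sets were not ranked as levels of genes.

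The large subunit and its stalk gave 15 tested members, with a median log2 difference of 0.23 (range -0.27 to 0.50), and both dexamethasone arrays were above both medium arrays for 11 of them, at the deposited scaling. Over all probe sets tested, 24.5% were separated in this direction and 25.5% in the other. Rpl41, one of the smallest proteins known in mammals, had the brightest member probe set, with signals of 5091 and 4821 in medium and 7087 and 5756 with dexamethasone. The first dexamethasone array was the highest and the groups did not overlap. It differed by 0.37 ± 0.11 on the log2 scale (SE, n = 2 a group, limma adjusted p = 0.144).

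Rplp0 encodes the base of the stalk. Its signals were 3916 and 4170 in medium and 5369 and 4783 with dexamethasone. The groups did not overlap, and Rplp0 differed by 0.33 ± 0.08 (limma adjusted p = 0.104). Hybridization-control scaling turned both values, to -0.064 for Rpl41 and -0.10 for Rplp0.

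Rpl7, Rpl7a, Rpl8, Rpl19 and Rpl6 are core proteins of the large subunit. The brighter Rpl7 probe set was at 2862 and 2680 in medium and at 3517 and 3228 with dexamethasone. Rpl8 was at 3785 and 3421 in medium and at 4605 and 3940 with dexamethasone. Rpl7a went from 2259 and 2132 to 2636 and 2388. In all 3 the groups did not overlap and the first dexamethasone array was highest. The brighter Rpl19 probe set (0.23 ± 0.07) and the Rpl6 probe set (0.15 ± 0.08) had the same order. Under hybridization-control scaling all 5 turned, and Rpl19 (-0.20), Rpl6 (-0.28) and Rpl7a (-0.24) passed as lower.

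Rpl13a also belongs to a complex that silences inflammatory mRNAs. It was at 629 and 678 in medium and at 680 and 709 with dexamethasone (0.088 ± 0.072). The lower dexamethasone array was barely above the higher medium array. Rpl37a differed by 0.19 ± 0.07. The 2 probe sets of Rpl10a differed by 0.15 ± 0.06 and 0.28 ± 0.08, and on both the dexamethasone arrays were the higher. Control scaling turned these too, and Rpl13a (-0.34), Rpl37a (-0.24) and the brighter Rpl10a probe set (-0.28) then passed as lower.

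Rpl22 had 2 probe sets, which disagreed. The brighter was at 110 and 107 in medium and at 87.7 and 92.9 with dexamethasone. Here both dexamethasone arrays were the lower, by -0.27 ± 0.10 (limma adjusted p = 0.228). The dimmer probe set was at 19.9 and 13.9 in medium and at 32.3 and 17.6 with dexamethasone, near background and with overlapping groups (0.50 ± 0.35). That value was 0.076 without the first dexamethasone array, 0.92 without the second and 0.066 under control scaling, so it rests on 1 array. Rpl7l1, a relative of Rpl7, was also lower without passing, at 66.1 and 69.8 in medium and 60.1 and 59.2 with dexamethasone (-0.18 ± 0.12). Under hybridization-control scaling, which lowers all probe sets, the brighter Rpl22 probe set (-0.70) and Rpl7l1 (-0.61) both passed.

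The small subunit gave 16 tested members, with a median log2 difference of 0.20 (range -0.87 to 0.32), and 11 of them were separated upwards at the deposited scaling. The third-brightest member probe set was annotated to Rps24, a protein mutated in some cases of Diamond-Blackfan anaemia. It was at 3776 and 3729 in medium and at 4809 and 4547 with dexamethasone. The groups were far apart relative to their spread, and this gave the lowest adjusted p of the 31 members (0.32 ± 0.07, limma adjusted p = 0.0686). Its name is uncertain: the annotation cites for it the same source entry as for the bright Rpl7 probe set, and the other Rps24 probe set was at background, with 5.20 to 9.60. Under hybridization-control scaling its value was -0.11.

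Rps18, at the head of the small subunit, was at 3360 and 3239 in medium and at 4307 and 3832 with dexamethasone (0.30 ± 0.08). Rps4x, an X-linked gene, was at 3194 and 2922 in medium and at 3859 and 3531 with dexamethasone (0.27 ± 0.08). Rps3a1 differed by 0.28 ± 0.09, Rps7 by 0.26 ± 0.09 and Rps10 by 0.17 ± 0.07. In these 5 both dexamethasone arrays were above both medium arrays. Rps3, which lies at the mRNA entry channel, was at 3160 and 2743 in medium and at 3587 and 3192 with dexamethasone, so that its groups nearly touched (0.20 ± 0.10). Rpsa, also known as the laminin receptor, had overlapping groups, at 1303 and 1170 in medium and 1365 and 1299 with dexamethasone. Under control scaling Rpsa (-0.32), Rps10 (-0.26) and the brightest Rps28 probe set (-0.23) passed as lower.

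Rps19, the gene most often mutated in Diamond-Blackfan anaemia, ran against the others. It was at 1630 and 2283 in medium and at 1105 and 1821 with dexamethasone. The groups overlapped, and the replicates differed more from each other than the groups did, with the first array the dimmer in both. At -0.44 ± 0.25 (limma adjusted p = 0.402) it was the lowest of the 20 members with a mean signal over 1000, and it was lower in every scaling run, passing under control scaling (-0.87). With a replicate block its call changed too (limma adjusted p = 0.0244). Without the first dexamethasone array its difference was -0.084, and without the second -0.80. The other 19 lay between 0.11 and 0.37 at the deposited scaling.

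**Figure D2:**
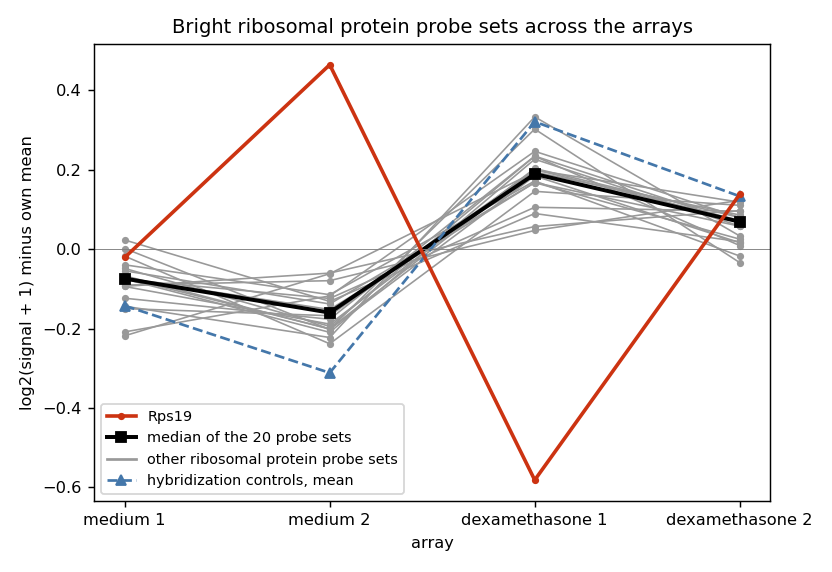
Log2(signal + 1) of the 20 ribosomal protein probe sets with a mean signal over 1000 on each array, as the difference from each probe set's own mean over the 4 arrays. Grey lines are single probe sets, red is Rps19, black their median and dashed blue the mean of the 9 hybridization controls. At the deposited scaling the median and the controls have the same order of arrays, highest on dexamethasone 1 and lowest on medium 2, whereas Rps19 is lowest on dexamethasone 1 and highest on medium 2. Control scaling, which took more control probe sets than these 9, turns the median difference of the 20 to -0.18.

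Apart from Rps19, the bright members moved together from array to array, also within a group. Of these 19, the first dexamethasone array was above the second for 17 and the first medium array above the second for 15. Over all 31 tested members, the first dexamethasone array exceeded the second by a median of 0.12 on the log2 scale, and the first medium array the second by 0.05. Between groups the medians were 0.22 and 0.29 for the first dexamethasone array against the medium arrays and 0.13 and 0.19 for the second. The smallest of these between-group medians was thus close to the difference between the dexamethasone replicates. The hybridization controls had the same order of arrays, with geometric mean signals of 280 and 249 in medium and 387 and 340 with dexamethasone.

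Other bright probe sets differed in the same way, and from a signal of 255 upwards the difference grew with signal. From dim to middling signals it fell instead. The median of other probe sets was 0.084 at signals of 7 to 15 and -0.038 at 255 to 511. Above a signal of 2047, 17 members had a median log2 difference of 0.26 and were all separated upwards, while 66 other probe sets had a median of 0.16, with 46 separated upwards (69.7%). Members were brighter than the others within this open range, with median signals of 3572 and 2629. In a narrower range above 2895, set after the data were seen, median signals were 3640 for 14 members and 3804 for 25 other probe sets. There the median log2 differences were 0.27 and 0.25, and all 14 members and all 25 others were higher at the deposited scaling. After control scaling 0 of the 17 members above 2047 and 1 of the 66 others were higher.

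Over all 31 tested members, the median log2 difference above other probe sets in the same range of signal was 0.084 with ranges 1 log2 unit wide and 0.031 with ranges of 0.5 and at least 10 other probe sets in the top one. Changing the width alone gave 0.12, and the minimum alone left 0.084. The first value was 0.046 after quantile normalization, 0.019 without the second medium array and 0.15 when each gene was represented by its brightest probe set. The members' median differences between arrays of a group (0.12 and 0.05) gave a pooled SD of 0.066, smaller than the difference of 0.20. Relative to probe sets of like signal, the members' median level was -0.013 and -0.030 in medium against 0.052 and 0.044 with dexamethasone. Its pooled SD was 0.0090. In the narrower ranges it was -0.0068 and -0.012 against 0.023 and 0.037. The groups did not overlap in either, while the size of the difference moved with the choice of ranges by more than this spread. No test was made over the members.

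**Figure D3:**
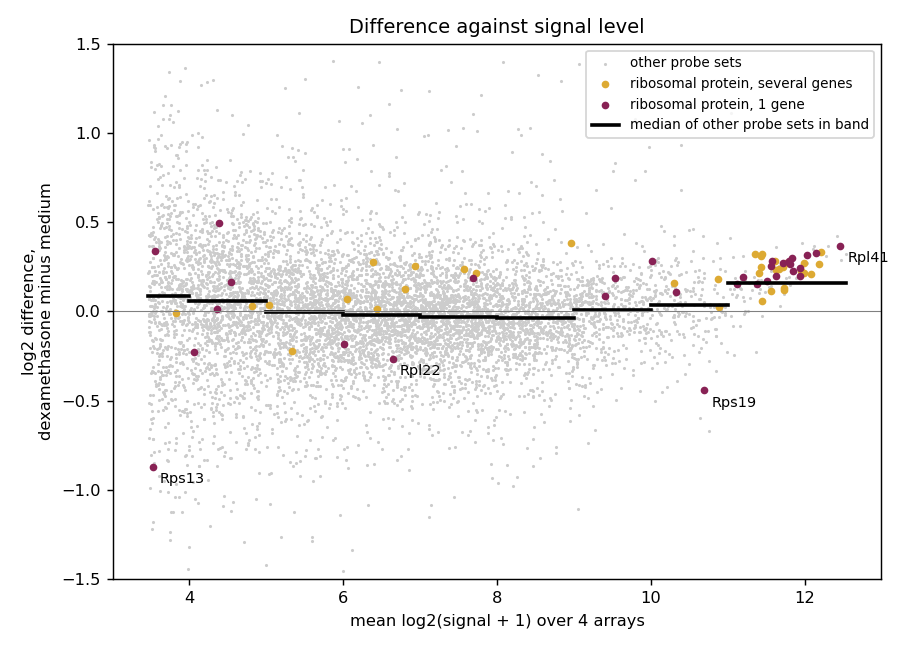
Log2 difference, dexamethasone minus medium, against mean log2(signal + 1) at the deposited scaling, for all tested probe sets (grey), ribosomal protein probe sets naming 1 gene (purple) and those naming several genes (yellow). Black bars are medians of the other probe sets in ranges of signal, 0.16 in the brightest, and 35 other probe sets lie beyond the plotted 1.5 in either direction. The bright ribosomal protein probe sets sit in the raised right-hand end of the grey cloud, an end that control scaling lowers with all other probe sets (members' median -0.23).

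**Figure D4:**
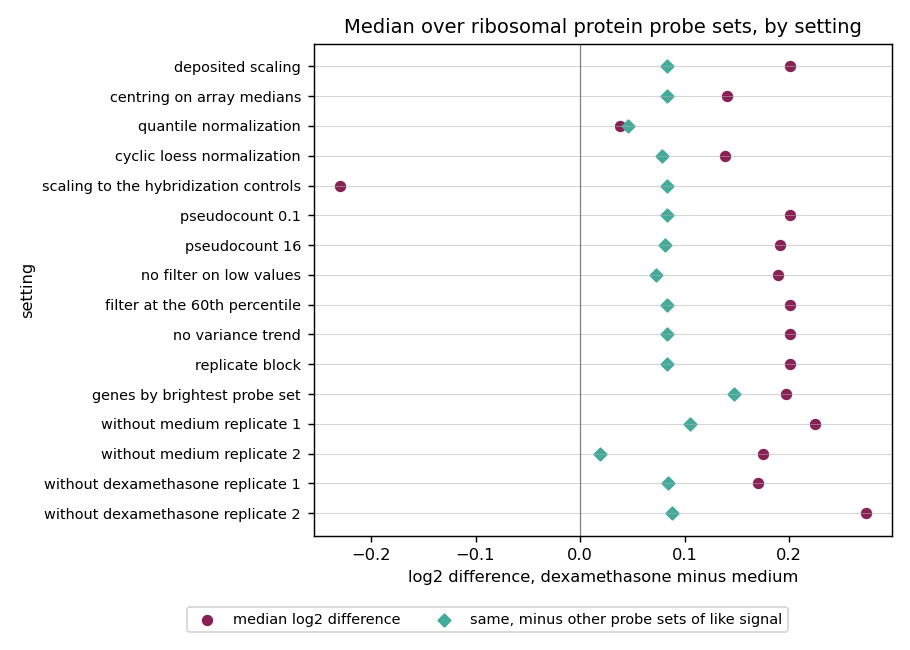
Median log2 difference over the tested ribosomal protein probe sets (purple circles) and the same after subtracting the median of other probe sets of like signal (green diamonds), for the deposited scaling and each other setting. The circles run from -0.23 under hybridization-control scaling to 0.27 without the second dexamethasone array, while the diamonds run from 0.02 to 0.15. Centring, control scaling, a replicate block and no variance trend cannot move the diamonds.

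The dim members carried little information. Rps13 was at 14.6 on both medium arrays and at 8.70 and 6.50 with dexamethasone. Both dexamethasone values lay in the background, so it was at least 1.04-fold lower, against a fitted log2 difference of -0.87 ± 0.31 that did not pass (limma adjusted p = 0.202). The tested Rpl38 probe set was at 13.6 and 6.50 in medium and 13.0 and 11.5 with dexamethasone, all background. Rps4l, a relative of Rps4x, was at 17.1 and 17.2 in medium and at 18.3 and 11.4 with dexamethasone, with overlapping groups. Rps29 lay between 20.8 and 24.4, and the dimmest Rps28 probe set between 16.2 and 23.8. Rps27 was at 177 and 208 in medium and at 217 and 221 with dexamethasone, above background and with separated groups.

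The remaining 18 members were not tested, and 17 of them were at or below the background on all 4 arrays. They were the only single-gene probe sets of Rps14, Rps15, Rps20, Rps27l, Rpl32, Rpl35a, Rpl39 and Rpl39l, and further probe sets of Rps4x, Rps24, Rps29, Rps4l, Rpl7, Rpl19 and Rpl38. The exception was the dim Rpl19 probe set, with 21.7 on the first medium array and less than 14 on the others. For the 8 genes named first, no level can be given. Rps14 was at 1.40 and 2.00 in medium and 5.50 and 7.80 with dexamethasone, all in the background, so no fold is given.

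**Figure D5:**
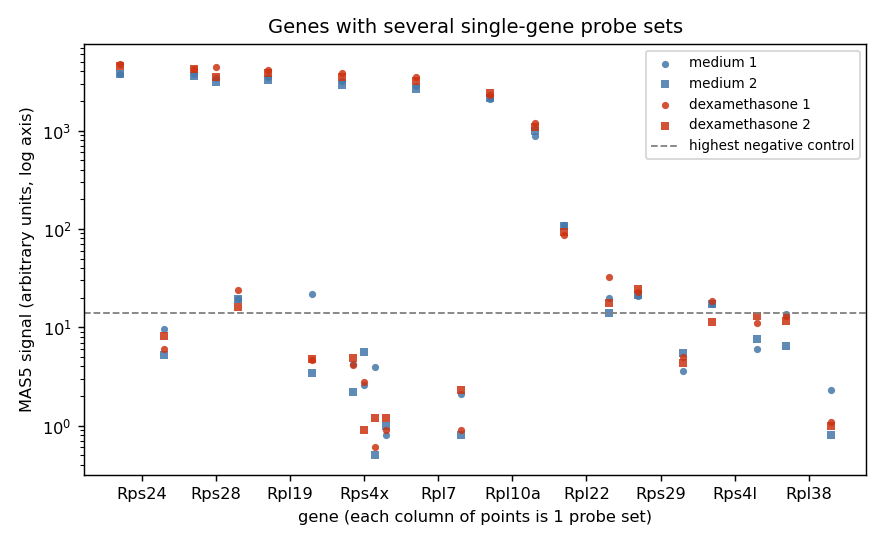
MAS5 signal (log axis) on each array for the 10 genes with more than 1 single-gene probe set. Each column of 4 points is a probe set, colours and symbols stand for the arrays, and the dashed line is the highest negative control, at 14. Rps24, Rpl19, Rps4x and Rpl7 each have a probe set with a mean above 1000 and at least 1 other whose mean is below 14. All values of Rpl38 lie at or below the line, as do those of Rps4l except 3 of its brighter probe set.

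Probe sets of the same gene thus often disagreed in signal. Rps4x had 5, of which the brightest had a mean signal of 3377 and the dimmest 0.975. For Rpl7 the means were 3072 and 1.52, for Rpl19 3690 and 8.62 and for Rps28 3938, 3595 and 19.7. The design codes differ too: of 9 probe sets with the suffix r, chosen outside the usual probe rules, 2 were above background on all arrays. All 3 with the suffix f, whose probes match a gene family, were above it on all arrays. Signal of such family probe sets, Rpl41 among them, can include close copies of the gene.

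The probe sets that named several genes measure the gene and its pseudogene copies together. Of 39, 35 were tested, 0 passed, and 33 were higher at the deposited scaling. Their median difference was 0.22 on the log2 scale, 0.038 under quantile normalization and -0.21 under control scaling. Both dexamethasone arrays were above both medium arrays for 25 of the 35. Rps23, named with a predicted gene, was at 4409 and 4021 in medium and at 5788 and 4844 with dexamethasone. Rplp1, a stalk protein, was at 3870 and 3549 in medium and at 4733 and 4219 with dexamethasone. Rps6, the substrate of the S6 kinases, was at 2903 and 3307 in medium and at 3604 and 3753 with dexamethasone. Each of these had separated groups. Rpl5, which binds the p53 inhibitor Mdm2 when ribosome assembly fails, differed by 0.22 ± 0.09. The probe set naming Rpl22l1, the relative of Rpl22, also named Orc5 and differed by 0.16 ± 0.06. Rpl36 was nearly level, at 1911 and 1820 in medium and 1912 and 1888 with dexamethasone.

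The bases around the start sites of the member genes were also read, bright, dim and untested genes alike. RefSeq gave start sites (GRCm38.p6) for 28 of the 35 genes, 7 of them with several starts. Of the 28, 23 had a tested probe set. These are annotated starts, not starts measured in these cells. The sequences below run from 40 bases before the start to 20 after it, 5′ to 3′ on the gene strand, and capitals mark a run of at least 8 C or T letters that begins with C. The first 6 hold such runs. In Rps18, Rps10, Rps27 and Rpl7a the run spans the start, so an mRNA from that start would begin within the run. The Rpl13a run begins shortly after the start shown, so an mRNA from that start would not begin with it, unlike a TOP mRNA. The Rps24 run lies wholly before the start shown, so an mRNA from that start would not hold it. Rpl41, Rplp0 and Rps19 are shown as the brightest members and the lowest bright member, without such a run in this window. For Rps24 the second of its starts is shown, and for Rps19 the first, while another start of Rps19 had a run.
Rps18 (chr17:33955646-33955705, minus strand): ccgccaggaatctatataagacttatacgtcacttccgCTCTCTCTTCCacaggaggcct
Rps10 (chr17:27635225-27635284, minus strand): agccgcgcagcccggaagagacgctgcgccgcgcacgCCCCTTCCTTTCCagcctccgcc
Rps27 (chr3:90213629-90213688, minus strand): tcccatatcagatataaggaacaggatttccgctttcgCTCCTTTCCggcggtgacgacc
Rpl7a (chr2:26910767-26910826, plus strand): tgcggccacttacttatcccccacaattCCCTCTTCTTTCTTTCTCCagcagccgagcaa
Rpl13a (chr7:45128726-45128785, minus strand): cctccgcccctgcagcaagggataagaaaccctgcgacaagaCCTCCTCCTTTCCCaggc
Rps24 (chr14:24490713-24490772, plus strand): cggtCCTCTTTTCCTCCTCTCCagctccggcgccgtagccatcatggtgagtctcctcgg
Rpl41 (chr10:128549149-128549208, minus strand): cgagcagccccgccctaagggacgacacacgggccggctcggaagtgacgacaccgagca
Rplp0 (chr5:115559427-115559486, plus strand): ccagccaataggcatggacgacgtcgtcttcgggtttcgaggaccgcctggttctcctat
Rps19 (chr7:24884552-24884611, plus strand): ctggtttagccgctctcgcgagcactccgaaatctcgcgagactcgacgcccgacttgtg

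A run of this kind began within 50 bases before to 40 after a start in 19 of the 28 genes (67.9%), against 30.8% of the 27025 genes of the table. Other letters were counted over the 300 bases from 250 before to 50 after each start. CTTTCC on the gene strand was present in 14 of the 28 genes, against 4328 of the 27025. CCGGAAG, letters bound by Ets factors, was present on either strand in 12 (42.9% against 9.93%). AAGATGG, which holds a start codon and letters bound by YY1, was present on either strand in 7 (against 7.28%), and GGGCGG, the letters of the GC box, in 17 (60.7% against 38.2%). TGTTCT, core letters bound by the glucocorticoid receptor, was present on either strand in 3 of the 28 (10.7% against 21.3%). The full palindrome, AGAACA and then TGTTCT with 3 letters between, was in 0 of the 28 and in 3 of all genes. CTTTCC can lie within the C and T runs, and TGTTCT lies within the palindrome. These are counts of letters in a window, and say nothing of what binds there.

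Genes linked to translation were read from other lists. Tested probe sets of 5 genes of ribosome-bound proteins or ribosomal protein fusions had a median log2 difference of 0.26, and 0 of 5 passed. Tpt1, the translationally controlled tumour protein and itself a TOP mRNA, was at 4043 and 3808 in medium and at 5460 and 4699 with dexamethasone (0.37 ± 0.09, limma adjusted p = 0.0998). Serbp1, an mRNA-binding protein of idle ribosomes, was dim and differed by 0.33 ± 0.29. Under control scaling this list's median was -0.18.

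The elongation factor list also held the termination factors Etf1 and Gspt1, Hbs1l, the kinase Eef2k and the mitochondrial Tufm and Tsfm. Of its 14 probe sets 0 passed. The list's median, not that of elongation factors alone, was 0.036 at the deposited scaling. It was -0.024 after centring on array medians and -0.39 under control scaling. Eef1a1, which delivers aminoacyl-tRNA to the ribosome, was at 4665 and 4222 in medium and 5988 and 5065 with dexamethasone (0.31 ± 0.10). At the deposited scaling Eef2 differed by 0.18 ± 0.07 and Eef1d by 0.06 ± 0.08. A dim Eef1b2 probe set differed by -1.07 ± 0.31 and Tsfm, a mitochondrial elongation factor, by -0.34 ± 0.12. The list of initiation factors and poly(A)-binding proteins also held Eif2ak kinases and Eif4ebp repressors. Of its 44 probe sets 0 passed, with a median of 0.00. Under control scaling 27 of the 44 fell, against 53.5% of all probe sets. The list's median was then -0.43, the same as that of all probe sets tested. The largest differences there were those of Eif3e (0.56 ± 0.21) and a dim Eif2s2 probe set (-0.53 ± 0.28). The latter was at 9.40 and 12.3 with dexamethasone, in the background. The other Eif2s2 probe set, also dim, differed by -0.09 ± 0.25.

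Mitochondrial ribosomal proteins, encoded in the nucleus and separate from the cytosolic set, gave 67 probe sets with a median of -0.05 (-0.48 under control scaling). Mrps5 of the small mitochondrial subunit fell, from 66.2 and 69.4 to 37.6 and 38.8 (-0.81 ± 0.13, limma adjusted p = 0.0314). No other probe set of these 6 lists passed in the fit without a block, while with the replicate block 1 more rose in each of the ribosome-bound, elongation and initiation lists. Mrpl35 had the next largest difference of this list, at 0.49 ± 0.14. Of 24 probe sets of cytosolic aminoacyl-tRNA synthetases 0 passed, with a median of -0.11 at the deposited scaling. Under control scaling 16 of the 24 fell, against 53.5% of all probe sets, at a median of -0.54 against -0.43. The largest differences were those of dim probe sets of Wars (-0.79 ± 0.44) and Yars (-0.78 ± 0.57).

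Of 9 probe sets of S6 kinases and mTORC1 components 0 passed. Larp1, which binds TOP mRNAs when mTORC1 is inactive, was at 239 and 258 in medium and at 207 and 203 with dexamethasone (-0.27 ± 0.08, limma adjusted p = 0.142). Both dexamethasone arrays were the lower. Tsc1, an inhibitor of the pathway, differed by -0.21 ± 0.17. The list's median was -0.016 at the deposited scaling, 0.019 under quantile normalization and -0.45 under control scaling.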

How the data were processed

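The values the authors deposited are linear intensities. The submitters' processing notes name MAS5, without version or parameters. The trimmed mean was 100.06 to 100.07 on every array, so the arrays share a scaling. Symbols came from the platform annotation. The Entrez IDs of all 35 member genes matched RefSeq's gene table. Signals were used as log2(signal + 1), so fold changes of dim genes are understated. The 66 control probe sets were left out, as were dim ones, with mean log2 signals no higher than the 40th percentile (signal 10.1), which left 7453. Probe sets, not genes, were tested, since the members are probe sets. Dexamethasone was compared with medium by lmFit and eBayes with a trend in limma 3.58.1 (R 4.3.3), by two-sided tests adjusted after Benjamini and Hochberg over all probe sets tested. The fit was tested on simulated data. The number of arrays limits precision.

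The members and lists were chosen with earlier results of these data known. Values on every array are given for the 5 highest and 5 lowest differences, the 3 brightest and 3 dimmest tested members, and genes whose probe sets disagree in sign. Further members, the narrower signal ranges and the genes compared with them were chosen after their values were seen. From the other lists, passing genes and the 2 largest differences are named. Eef1a1, Eef2, Eef1d and the other Eif2s2 probe set were added after their values were seen. Alternatives were other scalings, pseudocounts and filters, no variance trend, a replicate block, genes by their brightest probe set, and leaving out each array.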

Additional observations from a re-analysis of the deposited data

How the results depend on the processing

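With 2 technical arrays a group, small differences were not detectable, and signals at or under 14 carry no order. The count of members passing was 0 in all but these settings. With scaling to the hybridization controls 13 fell and 0 rose, beside 53.5% and 1.05% of all probe sets, of which 4062 passed. With a replicate block 7 passed: 6 rose (Rpl41, Rps4x, Rps3a1, Rpl7, Rps24 and Rps18) and Rps19 fell, beside 2.31% and 2.33% of all 7453 probe sets. The replicate numbers are only shared labels: deviations of same-numbered arrays correlated at 0.094 over all probe sets tested, and at 0.49 over the 31 members. The members' median log2 difference of 0.20 was 0.038 when quantile-normalized, -0.23 under control scaling, and 0.17 to 0.27 when an array was left out. The median above probe sets of like signal (0.084) could not change under centring, control scaling, a replicate block or no variance trend. These shift whole arrays or leave each difference as it was. In the other alternatives it stayed above 0. It was 0.046 when quantile-normalized, 0.073 with no filter, 0.15 for genes by brightest probe set, and 0.019 to 0.11 when an array was left out. With ranges of 0.5, added after seeing the data, it was 0.12 with at least 50 others and 0.031 with at least 10. Of the 35 tested probe sets naming several genes, 12 fell under control scaling and 5 rose with the block. Of all probe sets, 235 passed in the main setting, 112 with no filter, 13 without the variance trend and 27 to 62 when an array was left out. Under control scaling 25 of the 26 members that were higher turned, 9 of them passing as lower. Among those with values on every array by rule were Rpl38 (-0.092), Rpl41 (-0.064), Rplp0 (-0.10) and Rps24 (-0.11). With an array left out, Rpl38 ran from -0.14 (without the second medium array) to 0.82, and Rps4l from -0.55 to 0.089 (without the second dexamethasone array). The cause was not tested, apart from the shift of all probe sets that the control scaling makes by construction.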
